A study of Mus musculus with 29 samples.

Results

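Hepatocyte Maf1 loss on a high-fat (HF) diet was followed in 9 of the 29 liver RNA libraries of the series, chosen by the genotype and diet in their sample labels. The libraries came from 4 Maf1hep-/- and 5 Ctrl mice, 1 library per mouse. All 9 mice were male C57BL/6J mice (C57BL/6 in the labels), homozygous for a floxed Maf1 allele and 13 to 14 weeks old. They ate a diet with 60% of its calories from lard from 4 to 5 weeks of age, and were killed after an overnight fast and 4 h of refeeding. Maf1hep-/- mice also carried 1 copy of an Alb-Cre transgene, in which the albumin promoter drives Cre recombinase, and Ctrl mice carried none. Alb-Cre acts in hepatocytes, so the other cells of the liver kept Maf1. The presence of Cre and the loss of Maf1 cannot be told apart in these groups. The comparison asks which mRNAs differ when only hepatocytes lack Maf1 and the liver is loaded with dietary fat.

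MAF1 represses RNA polymerase III (Pol III), the enzyme that makes tRNAs and other short untranslated RNAs. Nutrients and growth signals keep MAF1 phosphorylated and inactive, whereas starvation and stress allow it to enter the nucleus and bind Pol III. Messenger RNAs, the RNAs counted here, are made by RNA polymerase II. In fat-fed mice, hepatocytes take up fatty acids, store them as triglyceride in lipid droplets and export part of them in very low density lipoproteins.

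Total counts per library were 25544816 to 28591597 for Ctrl and 25978153 to 32319706 for Maf1hep-/- mice. Levels are given as CPM, the count of a gene relative to all counts of its library after TMM scaling. At least 1 CPM was reached in 1 or more of the 9 mice by 12378 genes. Ctrl mouse 5 and Maf1hep-/- mouse 2 stood apart from the other mice. They scored 34.9 and 33.1 on the first principal component of log2(CPM), which held 31.7% of the variance, while the other 7 mice scored between −21.7 and 1.39. No difference between genotypes was detected on this component (exact permutation test, two-sided, p = 0.825). The second component, with 20.3% of the variance, placed Ctrl mice between −1.36 and 21.7 and Maf1hep-/- mice between −23.6 and −6.51, with no overlap (difference of means −27.7, exact permutation p = 0.0159, the smallest p that these 9 mice allow, and 0.0476 after adjustment over 3 components). Its leading genes were Gm35339, Mup9, Moxd1, Mup16 and Mup18. Without Maf1 and Gm35339 among the genes the difference was −26.1 with the same p. With any 1 mouse left out it was −31.3 to −19.9, with adjusted exact permutation p-values of 0.0857 to 0.257. Components were compared by rank, so the second component need not be the same axis in each fit. Without Maf1hep-/- mouse 2, the fit that gave −19.9, the larger difference lay on the first component (−26.8, exact permutation p = 0.0714). The smallest exact p that 8 mice can give is 0.0286 (4 against 4) or 0.0357 (3 against 5), so that a component alone at it has an adjusted value of 0.0857 or 0.107.

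**Figure D1:**
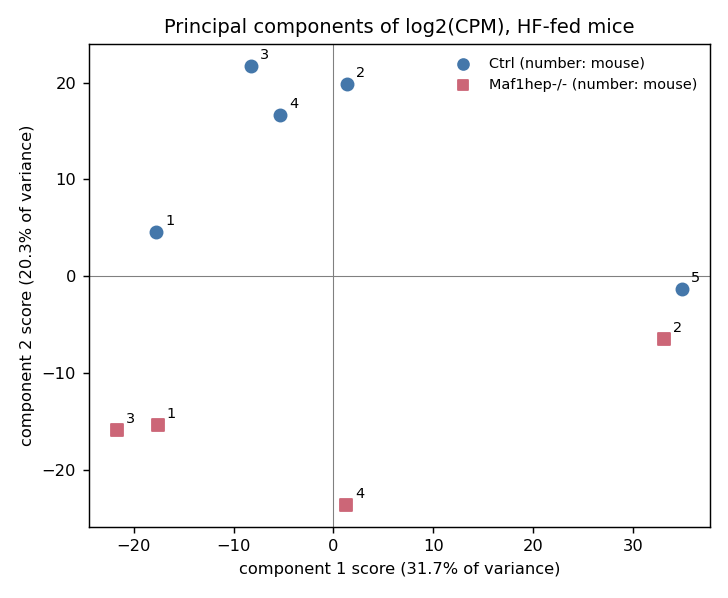
Scores of the 9 HF-fed livers on the first and second principal components of log2(CPM), with 31.7% and 20.3% of the variance. Each point is 1 mouse, labelled with its replicate number. Ctrl mouse 5 and Maf1hep-/- mouse 2 lie to the right at 34.9 and 33.1, and all 4 Maf1hep-/- mice lie below the 5 Ctrl mice on the second component.

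Maf1 itself, on chromosome 15 of GRCm38 from 76351294 to 76354380, was measured first, since it checks the labels. Its level was 23.02, 21.5, 23.5, 19.0 and 15.2 CPM in Ctrl mice 1 to 5 and 1.70, 2.16, 2.05 and 1.84 CPM in Maf1hep-/- mice 1 to 4. Every Maf1hep-/- liver lay below every Ctrl liver, and no library went against its label. The log2(FC), Maf1hep-/- over Ctrl, was −3.40 (SE 0.16, adjusted p-value = 1.91e-06 from edgeR's quasi-likelihood test with Benjamini-Hochberg adjustment), and an exact permutation test of the levels gave p = 0.0159, the smallest it can give. In bulk liver, fewer cells of a type and less RNA per cell cannot be told apart, and the Maf1 RNA that remained cannot be assigned to hepatocytes or to other cells. Gm35339, a gene predicted to encode a protein and lying on the same strand from 76354432 to 76365201 just past the end of Maf1, rose in the same mice. It stood at 0.603, 0.112, 0.122, 0.154 and 0.304 CPM in Ctrl and 64.0, 66.9, 56.3 and 59.7 CPM in Maf1hep-/- mice (log2(FC) 7.86, SE 0.28, adjusted p-value = 1.31e-07). These were the 2 genes of 12378 (0.0162%) that met the strict cutoffs, an adjusted p-value below 0.05 and a log2(FC) beyond 1 in size.

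At relaxed cutoffs, where the adjusted p-value had to be under 0.1 and the log2(FC) beyond 0.5 in size, 7 genes passed (0.0566%), and 6 of them are described here. Beyond Maf1 and Gm35339 these were genes of metal binding and lipid storage and an RNA with no known protein. Mt1 and Mt2, the metallothioneins that bind zinc, copper and cadmium, rose. So did Plin4, a perilipin that coats lipid droplets. Gm15638, annotated as an antisense RNA on chromosome 16, fell. All 6 had genotypes that did not overlap, which held for 93 genes that were higher (0.751%) and 128 that were lower (1.03%) in every Maf1hep-/- mouse among all genes tested. At these cutoffs the paper, using limma with RUVr factors, reports only Slco1a1 and Cdkn1c as further differences in this cohort. Neither passed edgeR's test here without factors (adjusted p-values 0.44 and 0.261), and both passed with 1 RUVr factor in edgeR. Mt1, Mt2, Plin4 and Gm15638 are not among the calls the paper reports.

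Mt1 was at 1.77, 1.86, 0.734, 2.995 and 2.67 CPM in Ctrl mice and 6.79, 29.9, 8.96 and 27.1 CPM in Maf1hep-/- mice. The lowest Maf1hep-/- liver was above the highest Ctrl liver, and mice 2 and 4 had the highest levels. Its log2(FC) was 3.17 (SE 0.49, adjusted p-value = 0.0784). Mt2 had few reads, 1 to 10 per Ctrl library and 32 to 88 per Maf1hep-/- library. Scaled to CPM it was 0.188, 0.0373, 0.0408, 0.269 and 0.338 in Ctrl and 1.18, 2.16, 1.75 and 2.75 in Maf1hep-/- mice, again without overlap (log2(FC) 3.43, SE 0.46, adjusted p-value = 0.0511 from edgeR). Among 24 measured metallothionein, zinc and copper handling genes, 2 passed, both metallothioneins, and the median log2(FC) of the list was 0.00. The zinc importers Slc39a11 and Slc39a8 had the next smallest p, with log2(FC) of 0.30 and 0.19 and an adjusted p-value of 0.834 for each.

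Plin4 was at 17.03, 9.88, 6.64, 8.56 and 17.2 CPM in Ctrl and 60.7, 29.2, 47.5 and 42.5 CPM in Maf1hep-/- mice (log2(FC) 1.92, SE 0.29, adjusted p-value = 0.0784). Ctrl mice 1 and 5 had about the same level of Plin4, and both lay below the lowest Maf1hep-/- mouse. Gm15638 was at 19.8, 22.3, 25.4, 19.4 and 22.9 CPM in Ctrl and 9.41, 12.1, 14.3 and 9.23 CPM in Maf1hep-/- mice (log2(FC) −0.96, SE 0.15, adjusted p-value = 0.0784). Whether the counting used strand is not given in the sources used here, so its reads cannot be told apart from those of a gene on the opposite strand.

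The relaxed calls other than Maf1 and Gm35339 depended on single mice. Without Ctrl mouse 2, Ctrl mouse 3, Ctrl mouse 4 or Maf1hep-/- mouse 4, only Maf1 and Gm35339 passed. Over the 9 fits that each left out 1 mouse, the adjusted p-value from edgeR ranged from 0.0289 to 0.381 for Mt1, 0.0289 to 0.203 for Mt2, 0.0438 to 0.365 for Plin4 and 0.0375 to 0.365 for Gm15638. Their log2(FC) kept its sign in each of these fits, between 2.83 and 3.45 for Mt1 and between 1.74 and 2.09 for Plin4. Without both Ctrl mouse 5 and Maf1hep-/- mouse 2, 17 genes passed the strict and 65 the relaxed cutoffs, and the 7 relaxed calls were among the 65.

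**Figure D2:**
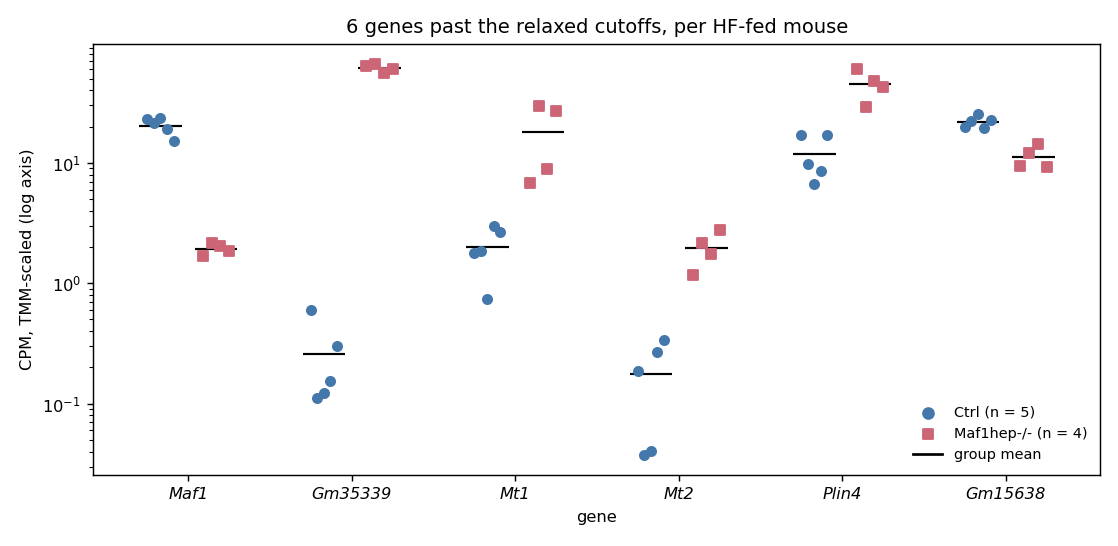
Levels of 6 of the 7 genes past the relaxed cutoffs in each HF-fed mouse, in CPM after TMM scaling on a log axis. Circles are the 5 Ctrl mice, squares the 4 Maf1hep-/- mice and lines the group means. No gene has overlapping genotypes, and Gm35339 spans the widest range, from 0.112 to 66.9 CPM.

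The 2 metallothionein genes lie next to each other on chromosome 8, and both are induced in many tissues through metal response elements, short motifs bound by the transcription factor MTF1. The 250 bases before their RefSeq start sites (GRCm38.p6, plus strand, chr8:94178839-94179088 for Mt1 and chr8:94172368-94172617 for Mt2) are shown because these 2 genes moved together. Capitals mark every match to the core of the element, TGCACNC or TGCGCNC, on either strand.
Mt1: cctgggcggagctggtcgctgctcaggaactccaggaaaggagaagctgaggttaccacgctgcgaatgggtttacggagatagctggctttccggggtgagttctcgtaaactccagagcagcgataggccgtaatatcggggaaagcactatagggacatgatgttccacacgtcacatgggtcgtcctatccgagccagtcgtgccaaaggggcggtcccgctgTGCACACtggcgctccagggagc
Mt2: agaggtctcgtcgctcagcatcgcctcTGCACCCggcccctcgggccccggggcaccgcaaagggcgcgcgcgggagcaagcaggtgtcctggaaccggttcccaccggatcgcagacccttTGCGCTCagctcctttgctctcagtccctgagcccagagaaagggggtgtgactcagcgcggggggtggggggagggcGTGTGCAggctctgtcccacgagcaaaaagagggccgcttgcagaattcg
The stretch before Mt1 held 1 match, 23 bases before the start, and that before Mt2 held 3, with the match 50 bases before the start on the other strand. With the 50 bases past the start the counts were 3 and 4. A match was found in 25.7% of 32851 RefSeq windows of the same 300 bases, and 3 or more in 1.97%. Mtf1 RNA itself was at 21.8, 26.4, 24.2, 24.1 and 28.3 CPM in Ctrl and 23.001, 26.8, 23.8 and 21.3 CPM in Maf1hep-/- mice (log2(FC) −0.07, adjusted p-value = 0.954), and the groups overlapped.

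Same-numbered Ctrl and Maf1hep-/- mice deviated from their group means with correlations of 0.414, 0.122, 0.268 and 0.266 for numbers 1 to 4. The replicate number was therefore also fitted as a block. This pairing was inferred from the same values that the block then tests, and the study describes its data as unpaired. Maf1hep-/- mouse 2 correlated more with Ctrl mouse 5 (0.548) and mouse 3 more with Ctrl mouse 1 (0.336). With the block, 29 genes passed the strict cutoffs (0.234%), 17 higher and 12 lower, and 94 passed the relaxed cutoffs (0.759%), 54 higher and 40 lower. An adjusted p-value under 0.05 at any size was reached by 45 genes (0.364%). Mt1, Mt2 and Plin4 were then past the strict cutoffs, with adjusted p-values of 0.00793, 0.0178 and 0.00793. The block estimate takes nothing from Ctrl mouse 5, which has no partner, and without pair 4 it called 3 genes at the strict and 20 at the relaxed cutoffs. The values with the block are therefore given below beside those without it, and only where they pass the cutoffs. The block values printed are thus a selection of the stronger ones. Many of the genes described below did not pass the relaxed cutoffs with the block. Examples are Ehhadh, Cyp4a31, Cyp4a10, G0s2, Fgf21, Rnase4, Orm2, Gdf15, Hsd3b5, Cyp7b1, Egfr, Col6a1, Gstt3 and Cyp2a22, and this list is not complete.

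Genes of lipid synthesis and storage differed in both directions. Of 23 measured genes of fatty acid synthesis, 14 were higher and 9 lower, with a median log2(FC) of 0.09, and 1 was higher and 1 lower at an unadjusted p under 0.05. That threshold was met by 748 of all genes tested (6.04%), 409 of them higher (3.3%) and 339 lower (2.74%), and the median over all genes was −0.00. The median of this list changed sign with the block and without Ctrl mouse 5 or Maf1hep-/- mouse 4. Scd1, the stearoyl-CoA desaturase that makes monounsaturated fatty acids, was the member with the largest difference. It was at 416, 185, 646, 409.7 and 2028 CPM in Ctrl and 4718, 976, 1931 and 5073 CPM in Maf1hep-/- mice. Ctrl mouse 5 lay above Maf1hep-/- mice 2 and 3, while the other 4 Ctrl mice lay below all Maf1hep-/- mice. Its log2(FC) was 2.11 (SE 0.66, adjusted p-value = 0.667 from edgeR), 2.79 with the block (adjusted p-value = 0.0222) and 3.24 without Ctrl mouse 5 and Maf1hep-/- mouse 2 (adjusted p-value = 0.0295).

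Levels of 8 other enzymes of fatty acid synthesis, elongation and desaturation overlapped between genotypes. Acly, which makes cytosolic acetyl-CoA, had a log2(FC) of 0.13 (SE 0.23), the acetyl-CoA carboxylases Acaca and Acacb had −0.16 (SE 0.12) and 0.04 (SE 0.31), and Fasn, the fatty acid synthase, had −0.17 (SE 0.36). Me1, which supplies NADPH, had −0.11 (SE 0.26), the elongases Elovl5 and Elovl6 had −0.08 (SE 0.15) and −0.39 (SE 0.17), and the desaturase Fads1 had 0.11 (SE 0.22). Adjusted p-values of these 8 genes from edgeR ran from 0.803 to 0.99. The signs of Acly, Acacb, Fasn, Me1, Elovl5 and Fads1 turned when single mice were left out. Fasn ranged from 151 to 473 CPM among Ctrl mice, a wider span than the 162 to 334 CPM of Maf1hep-/- mice.

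Among 18 measured lipid droplet genes, 11 were higher and 7 lower, and 3 were higher and 1 lower at an unadjusted p under 0.05 (median log2(FC) 0.23, but 0.06 without Maf1hep-/- mouse 3 and 0.02 with the block). Plin4 was the 1 member past the relaxed cutoffs. G0s2, an inhibitor of the triglyceride lipase ATGL, was at 43.9, 77.7, 52.2, 49.2 and 33.8 CPM in Ctrl and 142, 40.6, 106 and 129 CPM in Maf1hep-/- mice, with Maf1hep-/- mouse 2 inside the Ctrl range (log2(FC) 1.03, adjusted p-value = 0.667). The other 3 Maf1hep-/- livers were above all Ctrl livers. Without that mouse and Ctrl mouse 5, 7 members of the list were higher and 2 lower at an unadjusted p under 0.05. Plin3, another perilipin, had a log2(FC) of 0.40 and Plin2, the main droplet coat protein of hepatocytes, one of 0.41 (adjusted p-value = 0.903). Hsd17b11, a droplet-bound dehydrogenase, was lower (−0.66, adjusted p-value = 0.735) and passed the relaxed cutoffs with the block (−0.83, adjusted p-value = 0.0983).

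Uptake and activation of fatty acids gave differences in both directions, with 12 of 20 measured genes higher and 8 lower and a median log2(FC) of 0.01, which turned sign in some settings. Cd36, the fatty acid translocase, was at 189.5, 67.8, 103, 57.1 and 113 CPM in Ctrl and 409, 99.9, 254 and 166 CPM in Maf1hep-/- mice. The groups overlapped. Every Maf1hep-/- mouse was above the Ctrl mouse of its own number, a pairing inferred from the values. The log2(FC) of Cd36 was 1.13 (SE 0.41, adjusted p-value = 0.738) and 1.13 with the block (SE 0.15, adjusted p-value = 0.0305 from edgeR). Acsm2, a medium-chain acyl-CoA synthetase, was at 1.77, 1.79, 2.28, 3.03 and 0.979 CPM in Ctrl and 0.480, 0.707, 0.759 and 1.03 CPM in Maf1hep-/- mice (log2(FC) −1.39, adjusted p-value = 0.472; −1.58 and 0.0298 with the block). Vldlr, the receptor for very low density lipoprotein, was at 19.0, 5.36, 5.12 and 4.46 CPM in Maf1hep-/- mice against 6.48, 3.50, 3.95, 2.57 and 3.92 CPM in Ctrl. Maf1hep-/- mouse 1 carried that difference, which was 1.05 with it and 0.29 without it on the log2 scale.

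Fatty acid oxidation enzymes and other targets of PPARα, the fatty acid receptor that drives their transcription, were more often lower than higher. Of 38 measured genes, 27 were lower and 11 higher (median log2(FC) −0.15, but −0.0087 without Maf1hep-/- mouse 2), and 4 were lower and 1 higher at an unadjusted p under 0.05. With the block 33 were lower and 5 higher, with a median of −0.28. Ehhadh, the peroxisomal bifunctional enzyme, was at 3681, 3366, 4985, 4937 and 1714 CPM in Ctrl and 2264, 1609, 621 and 899 CPM in Maf1hep-/- mice. Ctrl mouse 5 lay inside the Maf1hep-/- range, and the log2(FC) was −1.47 (SE 0.40, adjusted p-value = 0.555 from edgeR). The fatty acid ω-hydroxylase Cyp4a10 had a log2(FC) of −0.78 (adjusted p-value = 0.774). Its relative Cyp4a31 was at 37.7, 48.0, 53.6, 68.0 and 40.4 CPM in Ctrl and 23.4, 32.01, 13.1 and 8.61 CPM in Maf1hep-/- mice, without overlap (log2(FC) −1.36, SE 0.33, adjusted p-value = 0.472). Cyp4a genes are close paralogs, so reads they share may have been split between them. Fgf21, a hormone induced through PPARα and amino acid stress, pointed the other way, at 5.16, 10.7, 6.03, 3.38 and 5.00 CPM in Ctrl and 22.96, 13.3, 4.02 and 27.9 CPM in Maf1hep-/- mice (log2(FC) 1.5, adjusted p-value = 0.666), and Maf1hep-/- mouse 3 lay inside the Ctrl range.

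Lipoprotein genes were split, with 14 of 26 higher and 12 lower (median log2(FC) 0.06, which turned sign without Ctrl mouse 1). Angptl8, a hormone of the fed state that regulates plasma triglyceride, was at 16.1, 19.5, 19.2, 26.9 and 7.46 CPM in Ctrl and 15.4, 32.1, 27.4 and 50.5 CPM in Maf1hep-/- mice. It had a log2(FC) of 0.82 (adjusted p-value = 0.808) with overlapping groups. Apoe and Apoc1, apolipoproteins of very low density and high density particles, had 0.47 and 0.37 (adjusted p-values 0.794 and 0.794), whereas Apob, the structural protein of very low density lipoprotein, had −0.03 (adjusted p-value = 0.988). Tm6sf2, needed to load lipid onto these particles, had 0.23 (adjusted p-value = 0.952), and its sign turned without Maf1hep-/- mouse 2.

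The Mup genes, whose products male livers secrete as pheromone carriers for the urine (major urinary proteins), were nearly all lower. Of 18 measured genes, 17 were lower and 1 higher in Maf1hep-/- livers, with a median log2(FC) of −1.65, and 15 were lower at an unadjusted p under 0.05. In 11 of them every Maf1hep-/- mouse lay below every Ctrl mouse, against 1.03% of all genes. Over all genes tested, 0 of the 18 passed edgeR's test without the block, with adjusted p-values from 0.281 upward. With the block 5 passed the strict cutoffs, Mup9, Mup11, Mup16, Mup17 and Mup18, and 10 the relaxed ones. DESeq2 without the block had Mup8, Mup13, Mup15, Mup16, Mup17, Mup18 and Mup19 among its 30 strict calls. In edgeR without Ctrl mouse 5 and Maf1hep-/- mouse 2 the counts were 17 lower and 1 higher, with a median of −1.91. There, 14 were lower at an unadjusted p under 0.05. The list holds genes that the study named from the proteins of these mice, so its direction is not independent evidence.

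Reads given to Mup genes were 2.55%, 2.21%, 3.39%, 2.96% and 1.91% of all counts in Ctrl mice 1 to 5. In Maf1hep-/- mice 1 to 4 they were 0.833%, 1.39%, 1.57% and 1.06%. The share was thus lower in every Maf1hep-/- liver than in every Ctrl liver, with Ctrl mouse 5 and Maf1hep-/- mouse 3 nearest to each other. Mup genes are nearly identical copies, and RSEM divides reads that match several of them, so a value for a single gene is less certain than this sum.

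Mup17 was at 1847, 1875, 3608, 2569 and 850.4 CPM in Ctrl and 108, 549.9, 511 and 199.9 CPM in Maf1hep-/- mice. Ctrl mouse 5 was the lowest of its group and Maf1hep-/- mouse 1 the lowest of all, and the groups did not overlap. Its log2(FC) was −2.65 (SE 0.53, adjusted p-value = 0.281) and −3.10 with the block (adjusted p-value = 0.0185 from edgeR). Mup11 was at 2240, 2924, 3736, 3162 and 1664 CPM in Ctrl and 409.8, 1596, 724 and 410.3 CPM in Maf1hep-/- mice (log2(FC) −1.81, adjusted p-value = 0.43; 0.0375 with the block). Mup20, which encodes darcin, a male pheromone, was at 3845, 3661, 4595, 4203 and 2932 CPM in Ctrl and 1618, 2530, 2540 and 2547 CPM in Maf1hep-/- mice (log2(FC) −0.74, SE 0.18, adjusted p-value = 0.472; 0.0671 with the block). The family was not uniform in size. Mup3 had a log2(FC) of −0.41, Mup21 of −0.32 and Mup2 of 0.18 with overlapping groups, while Mup9, Mup16 and Mup18 were at −2.72, −2.85 and −2.72.

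**Figure D3:**
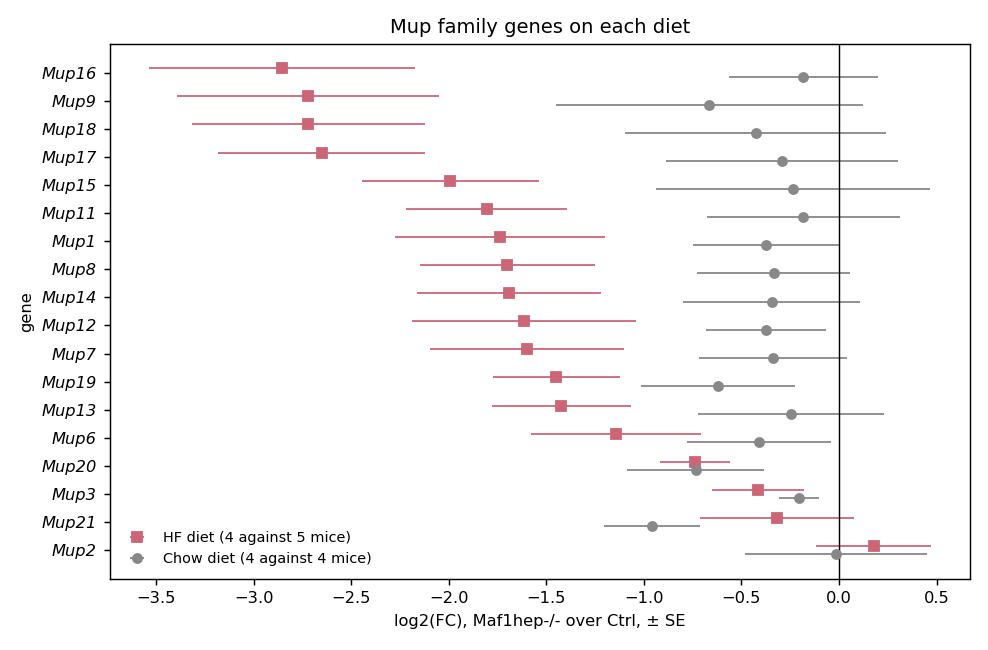
log2(FC) of 18 Mup genes, Maf1hep-/- over Ctrl, with its standard error from edgeR, on the HF diet (squares, 4 against 5 mice) and on chow (circles, 4 against 4 mice). On the HF diet 17 of 18 genes lie below 0 with a median of −1.65, and on chow all 18 lie below 0 with a median of −0.34.

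The promoters of these genes show how alike the copies are. Below are the 50 bases around the TATA box match (TATATAA, in capitals) of 4 Mup genes of chromosome 4, all on the minus strand, from RefSeq on GRCm38.p6, at chr4:61595823-61595872 for Mup17, chr4:61674088-61674137 for Mup18, chr4:62087294-62087343 for Mup3 and chr4:62150815-62150864 for Mup21. They are shown because the differences of Mup17 and Mup18 were among the largest of the family and those of Mup3 and Mup21 among the smallest.
Mup17: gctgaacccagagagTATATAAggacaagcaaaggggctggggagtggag
Mup18: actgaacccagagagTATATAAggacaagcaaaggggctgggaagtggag
Mup3: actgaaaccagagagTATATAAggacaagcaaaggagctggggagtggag
Mup21: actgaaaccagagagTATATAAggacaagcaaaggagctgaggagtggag
Against Mup17, Mup18 differed at 2 of the 50 bases, Mup3 at 3 and Mup21 at 4. Mup9, Mup19 and Mup2 had the same 50 bases as Mup17, and their log2(FC) were −2.72, −1.45 and 0.18, so these bases do not order the differences. TATATAA was found on either strand in 3.24% of all 32851 windows.

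Growth hormone (GH) pulses make the liver of a male mouse differ from that of a female, and Mup genes are among the genes they raise in males. Other male-biased, GH-dependent genes were lower too, with 22 of 24 measured genes lower, 2 higher and a median log2(FC) of −0.62. At an unadjusted p under 0.05, 7 were lower and 0 higher. Cspg5, a proteoglycan, was at 1.88, 4.14, 4.198, 3.11 and 2.26 CPM in Ctrl and 0.591, 1.45, 0.266 and 0.686 CPM in Maf1hep-/- mice, without overlap (log2(FC) −2.05, SE 0.42, adjusted p-value = 0.293; 0.0618 with the block). Slco1a1, a transporter of bile acids and steroid conjugates, was at 1085, 879.9, 1128, 932 and 652 CPM in Ctrl and 542, 419.7, 643 and 589 CPM in Maf1hep-/- mice. Its groups were separate by a small margin between Ctrl mouse 5 and Maf1hep-/- mouse 3, and the log2(FC) was −0.77 (SE 0.18, adjusted p-value = 0.44; −0.89 and 0.0193 with the block). The steroid dehydrogenase Hsd3b5 (−1.13), the oxysterol hydroxylase Cyp7b1 (−0.76), the fatty acid hydroxylase Cyp4a12b (−0.89) and the growth factor receptor Egfr (−0.85) had adjusted p-values from 0.631 to 0.863, and their groups overlapped.

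Female-biased genes, which the male GH pattern keeps low, were more often higher. Of 17 measured genes 14 were higher and 3 lower, with a median log2(FC) of 0.82, and 8 were higher and 0 lower at an unadjusted p under 0.05. Without Maf1hep-/- mouse 1 the median was 0.40, and with any 1 mouse left out 3 to 9 members met that threshold. The summed level of the list, most of it from the ω-hydroxylase Cyp4a14, was lower on average and overlapped between genotypes, at 6418, 8207, 7484, 7475 and 3843 CPM in Ctrl and 7777, 5294, 2309 and 2884 CPM in Maf1hep-/- mice. Most of them varied widely among mice. The cytochrome P450 Cyp2b9 was at 16.7, 0.261, 3.18, 0.384 and 1.28 CPM in Ctrl and 187, 0.521, 58.3 and 0.655 CPM in Maf1hep-/- mice. Only mice 1 and 3 of each group were above 2 CPM, and with the block the log2(FC) was 3.48 (adjusted p-value = 0.0173, against 0.787 without it). Ntrk2, a neurotrophin receptor, was at 1.47, 1.01, 1.63, 2.23 and 4.09 CPM in Ctrl and 3.10, 3.72, 5.01 and 7.61 CPM in Maf1hep-/- mice (log2(FC) 1.22, adjusted p-value = 0.667; 1.59 and 0.0185 with the block). Abcd2, a peroxisomal importer of fatty acyl-CoA, had 0.82 without and 0.95 with the block (adjusted p-values 0.727 and 0.0305). Cyp2a4, a female-biased steroid hydroxylase, was under 1 CPM in all mice but Maf1hep-/- mouse 1, at 0.188, 0.0373, 0.204, 0.192 and 0.811 CPM in Ctrl and 4.54, 0.335, 0.607 and 0.374 CPM in Maf1hep-/- mice (log2(FC) 2.29, adjusted p-value = 0.794), and its close copy Cyp2a5 may share reads with it. Of 15 genes of the GH axis itself, 8 were higher and 7 lower (median 0.04, which turned sign in some settings). The GH receptor Ghr (0.11), the transducer Stat5b (0.04) and the hormone Igf1 (−0.05) had adjusted p-values from 0.963 to 0.98. Both sex-biased lists also hold genes that the study named from these mice.

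**Figure D4:**
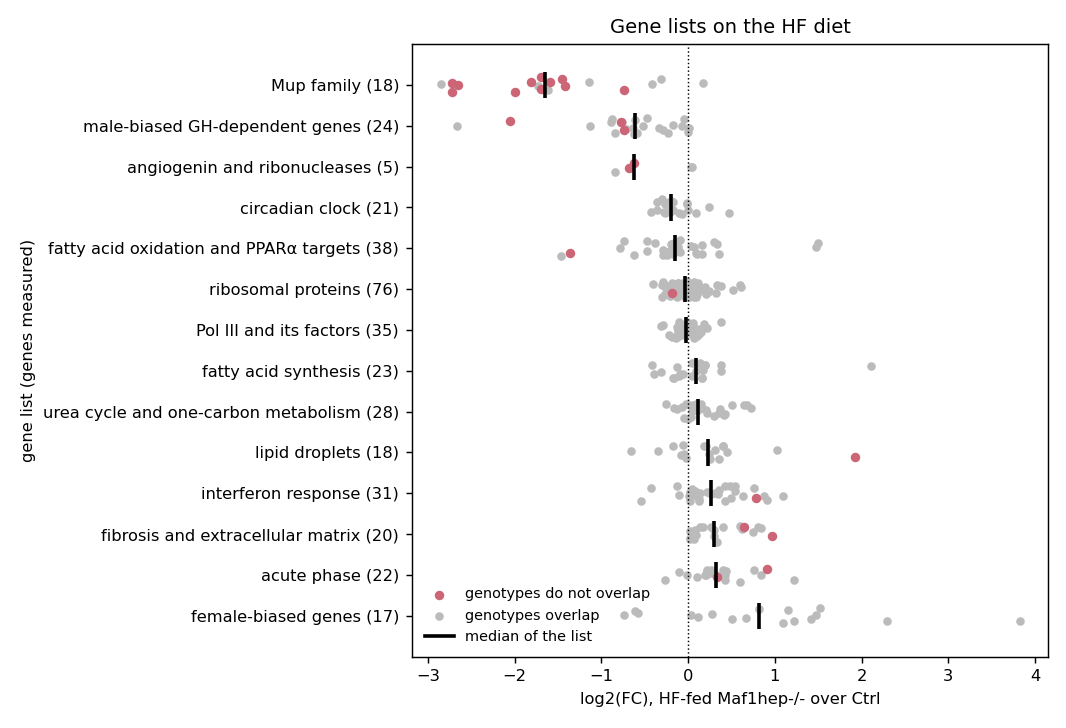
log2(FC) of the measured members of 14 gene lists, HF-fed Maf1hep-/- over Ctrl. Each point is a gene, coloured where the genotypes do not overlap, and the bar is the median of the list. The Mup family and the male-biased genes lie to the left (medians −1.65 and −0.62) and the female-biased genes to the right (0.82), while Pol III subunits and ribosomal proteins centre on 0.

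Ang and Rnase4, 2 secreted ribonucleases that are transcribed from a shared promoter on chromosome 14, were lower together. Ang, angiogenin, which cleaves tRNAs under stress, was at 205, 246, 207, 205 and 255 CPM in Ctrl and 118, 151, 167 and 123 CPM in Maf1hep-/- mice. All 4 Maf1hep-/- mice lay below the Ctrl mice (log2(FC) −0.68, SE 0.13, adjusted p-value = 0.235; −0.64 and 0.0578 with the block, past the relaxed cutoffs). Rnase4 was at 829.1, 902, 841, 812 and 879 CPM in Ctrl and 489.6, 473, 772 and 478 CPM in Maf1hep-/- mice, where mouse 3 stood close to the Ctrl range and the other 3 mice well below it. Its log2(FC) was −0.62 (SE 0.15, adjusted p-value = 0.472), and with any 1 mouse left out the adjusted p-value from edgeR ranged from 0.0375 (without Maf1hep-/- mouse 3) to 1 (without Maf1hep-/- mouse 4). The annotated spans of the 2 genes overlap, so reads in shared exons may have been split between them. The 100 bases before their shared RefSeq start (GRCm38.p6, plus strand, chr14:51090977-51091076) are shown because 1 promoter serves both genes.
Ang and Rnase4: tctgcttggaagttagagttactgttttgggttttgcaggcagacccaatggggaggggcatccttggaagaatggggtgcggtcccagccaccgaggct
The inhibitor of these enzymes, Rnh1, had a log2(FC) of 0.03 (adjusted p-value = 0.982), and the angiogenin receptor Plxnb2 one of 0.05 (adjusted p-value = 0.974).

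Acute phase proteins, which hepatocytes secrete in inflammation, were mostly higher, with 19 of 22 measured genes higher and 3 lower (median log2(FC) 0.33, but 0.20 without Maf1hep-/- mouse 3), 8 of them higher at an unadjusted p under 0.05 and 0 lower. Apcs, serum amyloid P, was at 46.4, 70.4, 55.6, 75.0 and 58.6 CPM in Ctrl and 92.3, 117, 101 and 149 CPM in Maf1hep-/- mice. The groups were separate (log2(FC) 0.91, SE 0.17, adjusted p-value = 0.201; 0.89 and 0.00793 with the block). Orm2, an orosomucoid, was at 11.3, 9.54, 5.95, 12.4 and 10.9 CPM in Ctrl and 12.1, 20.5, 40.3 and 20.8 CPM in Maf1hep-/- mice, and mouse 1 of the latter lay inside the Ctrl range (log2(FC) 1.22, adjusted p-value = 0.472). The protease inhibitors Serpina3m (0.43) and Itih4 (0.41) had adjusted p-values of 0.641 and 0.709. The acute phase genes Saa1 (0.27), Hp (0.22) and Crp (−0.10) had adjusted p-values from 0.945 to 0.972.

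The measured matrix genes were all higher, 20 of 20 with a median log2(FC) of 0.30, and 9 were higher at an unadjusted p under 0.05. The differences were small. Col1a1, a chain of type I collagen, was at 2.83, 2.83, 2.20, 2.96 and 4.83 CPM in Ctrl and 5.54, 5.25, 7.48 and 6.21 CPM in Maf1hep-/- mice, without overlap (log2(FC) 0.96, SE 0.22, adjusted p-value = 0.429; 1.17 and 0.0519 with the block). Col6a1, of type VI collagen, also did not overlap, at 9.61, 8.72, 8.76, 7.41 and 11.4 CPM against 12.5, 13.1, 12.8 and 18.9 CPM (log2(FC) 0.64, adjusted p-value = 0.472). Col1a2, the other type I chain, was at 0.62 and 0.79 with the block (adjusted p-values 0.553 and 0.0375). Col3a1, a fibrillar collagen chosen for the text after its values were seen, was at 22.4, 17.8, 26.6, 22.0 and 44.2 CPM in Ctrl and 40.6, 39.2, 57.9 and 53.1 CPM in Maf1hep-/- mice, where Ctrl mouse 5 was above 2 of the Maf1hep-/- mice. It had a log2(FC) of 0.84 (adjusted p-value = 0.595) and 1.10 with the block (adjusted p-value = 0.00711 from edgeR). Without Ctrl mouse 5 and Maf1hep-/- mouse 2, 18 of the 20 genes were higher and 2 lower. Markers of stellate cells, the main source of liver collagen, were higher in 6 of 8, with summed levels of 568 to 673 CPM in Ctrl and 567 to 768 CPM in Maf1hep-/- mice, and their part in this difference was not tested.

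Interferon-induced genes were higher in 27 of 31 and lower in 4 (median log2(FC) 0.26), 8 higher and 1 lower at an unadjusted p under 0.05. The median was 0.13 without Maf1hep-/- mouse 3, and with any 1 mouse left out 4 to 14 members met that threshold. With the block 21 members were higher and 10 lower (median 0.20). Mx1, an antiviral GTPase, was at 3.24, 1.75, 2.32, 3.19 and 3.31 CPM in Ctrl and 4.80, 3.68, 4.55 and 5.93 CPM in Maf1hep-/- mice, without overlap (log2(FC) 0.78, SE 0.22, adjusted p-value = 0.592; 0.0851 with the block). Rsad2, or viperin, was at 27.3, 8.2005, 18.7, 20.9 and 22.4 CPM in Ctrl and 40.6, 18.9, 52.5 and 54.1 CPM in Maf1hep-/- mice. Mouse 2 was the lowest of each group, and the log2(FC) was 1.09 (adjusted p-value = 0.661) and 1.16 with the block (adjusted p-value = 0.027). Ifit3 and its near copy Ifit3b, of the antiviral IFIT family, had 0.87 and 0.90 (adjusted p-values 0.703 and 0.661), and with the block 0.91 and 0.99 (adjusted p-values 0.0173 and 0.0487 from edgeR). Without Ctrl mouse 5 and Maf1hep-/- mouse 2, 13 members were higher and 1 lower at an unadjusted p under 0.05.

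H2-Q1, a class I histocompatibility gene of the Qa group, stood out from its relatives. It was at 1.85, 0.895, 0.815, 0.998 and 2.97 CPM in Ctrl and 8.97, 3.24, 7.55 and 12.5 CPM in Maf1hep-/- mice, with the lowest Maf1hep-/- mouse, mouse 2, just above Ctrl mouse 5. Its log2(FC) was 2.41 (SE 0.44, adjusted p-value = 0.196) and 2.75 with the block (adjusted p-value = 0.0137 from edgeR). Among 22 genes of class I presentation, 15 were higher and 7 lower (median 0.11), a median that turned sign without Maf1hep-/- mouse 3. H2-Q10, a secreted class I molecule of the liver, had 0.37 and H2-Q6 had −0.43, while the classical H2-K1 and H2-D1 had 0.13 and 0.15. These genes are alike in sequence and may share reads.

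**Figure D5:**
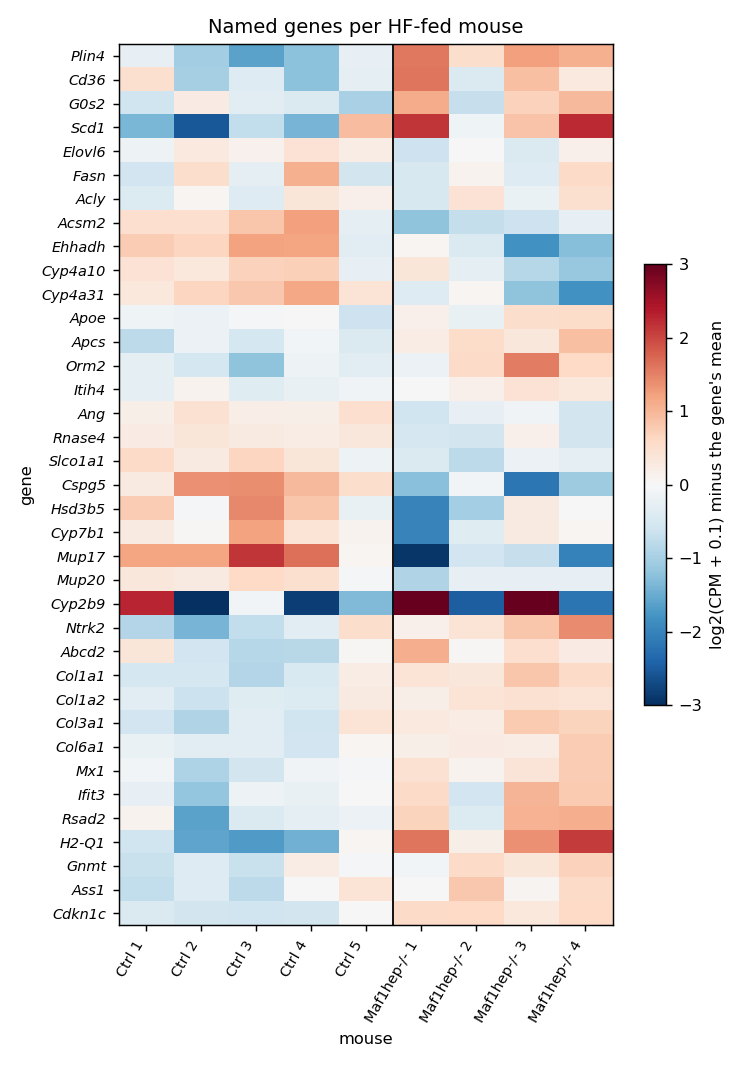
Levels of 37 named genes in each HF-fed mouse, as log2(CPM + 0.1) minus the mean of the gene over the 9 mice, with colours saturating at 3. Columns are mice, split by genotype, and each line is a gene. Scd1, Mup17 and H2-Q1 in Ctrl mouse 5 lie nearer to Maf1hep-/- mice than in the other Ctrl mice, and Cyp2b9 is highest in mice 1 and 3 of each group.

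Amino acid metabolism gave small differences. Of 28 genes for urea synthesis and one-carbon metabolism, 22 were higher and 6 lower (median log2(FC) 0.12, but 0.07 without Maf1hep-/- mouse 2), 4 higher at an unadjusted p under 0.05. Gnmt, the glycine methyltransferase that consumes S-adenosylmethionine, was at 263, 320.0, 262, 488 and 406 CPM in Ctrl and 396, 618, 542 and 671 CPM in Maf1hep-/- mice (log2(FC) 0.68, adjusted p-value = 0.663; 0.76 and 0.0536 with the block). Ass1, argininosuccinate synthase of the urea cycle, was at 442, 565, 427, 723 and 977 CPM in Ctrl and 734, 1290, 781 and 1100 CPM in Maf1hep-/- mice. Each of the 4 Maf1hep-/- mice was above the Ctrl mouse of its number, with a log2(FC) of 0.64 (adjusted p-value = 0.794) and 0.85 with the block (adjusted p-value = 0.0372). In the amino acid stress response, 18 of 22 genes were higher and 4 lower (median 0.16, and 0.26 without Maf1hep-/- mouse 1). Gdf15, a stress hormone, was at 1.02, 0.596, 0.530, 0.346 and 0.507 CPM in Ctrl and 2.18, 0.893, 0.949 and 1.62 CPM in Maf1hep-/- mice (log2(FC) 1.23, adjusted p-value = 0.631), and Ddit4, an inhibitor of TORC1, had 0.97 (adjusted p-value = 0.703). Slc7a5, a leucine transporter, was lower at −0.89 (adjusted p-value = 0.774).

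The machinery closest to MAF1 showed little difference. Of 35 genes for Pol III subunits and its transcription factors, 15 were higher and 20 lower, with a median log2(FC) of −0.03, and 0 had an unadjusted p under 0.05 in either direction. Their summed level was 680 to 705 CPM in Ctrl and 657 to 695 CPM in Maf1hep-/- mice. The median turned sign without Ctrl mouse 5 and Maf1hep-/- mouse 2. Among subunits found only in Pol III, the smallest p was that of Polr3e, at 18.4, 19.4, 21.0, 21.4 and 19.2 CPM in Ctrl and 18.8, 19.2, 15.4 and 16.3 CPM in Maf1hep-/- mice (log2(FC) −0.19, SE 0.10, adjusted p-value = 0.834). Among 76 ribosomal protein genes, 33 were higher and 43 lower (median −0.03), 3 higher and 5 lower at an unadjusted p under 0.05, and Fau (0.52) and Rps28 (−0.41) had the smallest p. Of 20 tRNA synthetases, 8 were higher and 12 lower (median −0.03). Both medians turned sign when single mice were left out. The clock genes, 18 of 21 lower with a median of −0.19 (−0.07 without Ctrl mouse 5), included 0 with an unadjusted p under 0.05 by edgeR (0 to 6 with any 1 mouse left out), and the repressor Cry2 came nearest (−0.28, adjusted p-value = 0.834).

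Among 26 cell cycle genes 18 were higher and 8 lower (median log2(FC) 0.17, but 0.05 without Maf1hep-/- mouse 3). Cdkn1c, the CDK inhibitor p57, was at 1.06, 0.969, 0.937, 0.960 and 1.49 CPM in Ctrl and 2.22, 2.27, 1.86 and 2.28 CPM in Maf1hep-/- mice. It was low in all livers and did not overlap between genotypes (log2(FC) 0.99, SE 0.19, adjusted p-value = 0.261; 1.13 and 0.0698 with the block). The proliferation marker Mki67 had 0.69 and the p53 target Ccng1 0.40 (adjusted p-values 0.802 and 0.747), and Ccnd2, a cyclin, −0.34. Enzymes of xenobiotic metabolism were higher in 31 of 44 and lower in 13 (median 0.14, which turned sign without Maf1hep-/- mouse 3). With the block 24 were higher and 20 lower (median 0.05). The glutathione transferase Gstm2 was the clearest, at 18.6, 15.5, 16.8, 19.3 and 21.1 CPM in Ctrl and 26.4, 23.2, 24.1 and 27.5 CPM in Maf1hep-/- mice, without overlap (log2(FC) 0.47, SE 0.10, adjusted p-value = 0.429; 0.53 and 0.0375 with the block). Its relative Gstt3 (1.2) and the cytochrome P450 Cyp2a22 (2.16) varied more, with Maf1hep-/- mouse 2 near the Ctrl mice. Of RNAs without a known role, the pseudogene Adh6-ps1 was at 95.8, 106, 174, 137 and 93.1 CPM in Ctrl and 40.1, 64.1, 59.2 and 77.0 CPM in Maf1hep-/- mice (log2(FC) −1.01, adjusted p-value = 0.427; 0.0278 with the block), and the intronic RNA Gm26967 at 11.5, 12.1, 16.1, 11.5 and 5.47 against 4.54, 5.36, 5.35 and 5.05 CPM (log2(FC) −1.16, adjusted p-value = 0.399; 0.00793 with the block).

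The livers carried the RNA of their labelled tissue. Albumin (Alb) was at 60805 to 75764 CPM in Ctrl and 81542 to 88406 CPM in Maf1hep-/- mice (log2(FC) 0.29, adjusted p-value = 0.834), and every Maf1hep-/- liver lay above every Ctrl liver. All 8 hepatocyte markers were measured, 7 of them higher. Their median log2(FC) of 0.06 turned sign without Ctrl mouse 5 and with the block, where 4 were higher and 4 lower. Markers of other cells were present in both groups. Kupffer cell markers were higher in 8 of 12, with summed levels of 431 to 635 CPM in Ctrl and 393 to 793 CPM in Maf1hep-/- mice, and sinusoidal endothelial markers in 5 of 9, with 521 to 597 CPM against 504 to 573 CPM. The Kupffer cell median of 0.23 was −0.03 without Maf1hep-/- mouse 4, and the endothelial median of 0.04 turned sign in 4 of 20 settings. Cd68, a macrophage marker, had a log2(FC) of 0.43 (adjusted p-value = 0.703). Of the markers of lymphocytes, neutrophils, adipocytes and pancreas, 2 of 9, 2 of 7, 1 of 6 and 1 of 5 reached 1 CPM. Erythroid genes, 5 of 8 measured, were all higher with a median log2(FC) of 1.49 (0.92 without Maf1hep-/- mouse 4) and summed levels of 66.9 to 115 CPM in Ctrl and 71.3 to 184 CPM in Maf1hep-/- mice. Among them the globin gene Hba-a2 was at 0.377, 2.24, 0.367, 0.922 and 0.912 CPM in Ctrl and 0.923, 3.87, 0.835 and 8.08 CPM in Maf1hep-/- mice, so that Maf1hep-/- mice 2 and 4, the mice with the highest Mt1, also had the most Hba-a2. Most of the summed level came from Alas2, a heme synthesis enzyme, and that sum was 71.3, 115, 129 and 184 CPM in Maf1hep-/- mice 1 to 4, higher in mouse 3 than in mouse 2. Its part in other differences was not tested.

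On chow, the same genotype comparison was made in 4 Maf1hep-/- and 4 Ctrl mice with the same alleles, sex, fasting and refeeding, and genotype was tested against diet in 1 fit of all 17 hepatocyte-specific mice. Diet and sequencing run cannot be told apart, since the HF libraries were sequenced apart from the chow libraries, at 150 cycles on 2 lanes. Depth differed with diet too, at 43564164 to 63756727 counts per chow library and 25544816 to 32319706 per HF library. All HF values were whole numbers as deposited, whereas the chow values were not. Of 12970 genes, 0 passed edgeR's interaction test at an adjusted p-value under 0.05 (0%), 599 had an unadjusted p under 0.05, and DESeq2 called 11. Without Ctrl mouse 5 edgeR called 1, Gm26967. Mt1 and Mt2 had the opposite sign on chow. Mt1 was at 333, 23.1, 22.6 and 9.58 CPM in chow-fed Ctrl and 28.3, 35.9, 23.7 and 15.97 CPM in chow-fed Maf1hep-/- mice, with a log2(FC) of −1.90 against 3.17 on the HF diet (interaction unadjusted p = 0.000613, adjusted p-value = 0.69 from edgeR). Mt2 had −3.61 on chow (interaction unadjusted p = 0.00132), at 94.3, 1.51, 1.34 and 0.815 CPM in chow-fed Ctrl and 2.61, 2.03, 2.36 and 0.984 CPM in chow-fed Maf1hep-/- mice. The negative sign on chow rested on 1 liver, chow-fed Ctrl mouse 1, which held 333 CPM of Mt1 and 94.3 CPM of Mt2, while the other 7 chow-fed livers overlapped between genotypes.

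The 5 smallest interaction p-values belonged to 2410006H16Rik, Maf1, Adh6-ps1, Gm26967 and Zfp408, with adjusted p-values from edgeR between 0.406 and 0.429. 2410006H16Rik, a noncoding RNA, had a log2(FC) of 0.90 on the HF diet and −0.34 on chow, Adh6-ps1 −1.01 and 0.37, Gm26967 −1.16 and 0.41, and the zinc finger gene Zfp408 0.33 and −0.29. Maf1 was at −3.40 and −2.33. Several of the groups described above stood elsewhere on chow. The Mup genes had a median of −0.34 with 0 of 18 higher, Plin4 had 0.27 and Scd1 0.24, whereas Ang and Rnase4 had −0.53 and −0.54, close to their values on the HF diet. Male-biased genes had a chow median of 0.02, female-biased genes 0.12 and matrix genes 0.05. The medians of lists were not tested between diets. For single genes, edgeR's interaction test called 0 of 12970.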

How the data were processed

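Liver RNA of 29 mice was measured by RNA sequencing, and the 9 HF-fed mice (4 Maf1hep-/-, 5 Ctrl) were analysed here, with 8 chow-fed mice for the test of diet. Each deposited value is the expected count of a gene in a library. Per the paper's methods the authors trimmed reads with TrimGalore, aligned them to mm10 with STAR and counted them with RSEM. The annotation is not given in the sources used here. All HF values were whole, and chow values were rounded. Totals were 25544816 to 32319706 per HF library, and no replicates were duplicates.

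Genes were kept where any HF library reached 1 CPM, then scaled by TMM and tested for genotype with edgeR 4.0.16 (glmQLFit, glmQLFTest) in R 4.3.3, with Benjamini-Hochberg adjustment over all 12378 genes. Cutoffs on the adjusted p-value and the size of the log2(FC) were 0.05 and 1 for strict calls, and 0.1 and 0.5 for relaxed calls. Exact two-sided permutation tests used scipy 1.17.1. DESeq2 1.42.0, limma 3.58.1 (voom, with and without RUVr factors), other scalings and filters, a replicate block, all hepatocyte-specific mice in 1 fit and the omission of each mouse or pair were alternatives. The block took the replicate number from the labels, which do not say what it marks, and the study's statistics describe its data as unpaired. Deviations from the group means correlated at 0.414, 0.122, 0.268 and 0.266 for numbers 1 to 4, all above 0.1, so the pairing was inferred from the values alone. Maf1hep-/- mouse 2 correlated more with Ctrl mouse 5 (0.548) and mouse 3 more with Ctrl mouse 1 (0.336) than with the Ctrl mouse of their number.

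Named genes were Maf1 and Gm35339, the relaxed calls, genes the study names for HF-fed Maf1hep-/- liver, the leading non-overlapping strict calls with the block, up to 4 members of each list by p, and the 5 smallest interaction p-values. Some genes that the rule names are not reported here. Other genes named in the text (Mtf1, Plin2, Apob, Ghr, Stat5b, Igf1, Rnh1, Plxnb2, Saa1, Hp, Crp, H2-K1, H2-D1, Moxd1 and Col3a1) were chosen after their values were seen. The comparison and the gene lists were chosen with earlier results of these data known. Lists are described by counts and medians, without a test. The statistical scripts were tested on simulated data. Gene positions are from GENCODE on GRCm38 and matched 12372 genes, and promoter sequences are from RefSeq on GRCm38.p6. Windows were found for 79 of the 110 genes looked up.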

Additional observations from a re-analysis of the deposited data

Results flagged for a closer look

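Levels of the named genes in each HF genotype were screened for a mouse far from the rest of its group by Dixon's criterion. It was met by 20 of 220 groups (9.09%). About 1 in 20 groups of independent, normally distributed values would meet it. The CPM of these selected and partly related genes need not follow that rate, so no excess can be read from the share. In Ctrl mouse 5, which stood apart on the first component, Scd1 was at 2028 CPM, Cdkn1c at 1.486, Cyp2a4 at 0.8105 and Col1a1 at 4.829, all above the other Ctrl mice, and Ccnd2 was at 25.36. In Maf1hep-/- mouse 2, Egfr was at 1549 CPM, Ccng1 at 69.23 and the interferon-induced Ifit3b at 5.174. In Maf1hep-/- mouse 1, Vldlr was at 19.01 CPM, Cyp2a4 at 4.541 and Mup20 at 1618. In Maf1hep-/- mouse 3, Rnase4 was at 772.4 CPM, near the Ctrl range, and Cdkn1c at 1.859, while in mouse 4 Col6a1 was at 18.9. Among the other Ctrl mice, Cyp2b9 was at 16.69 and Cyp2a22 at 7.16 CPM in mouse 1, Ifit3 at 12.08 in mouse 2, Cyp7b1 at 612.5 in mouse 3, and Igfbp2, a binding protein of insulin-like growth factors, at 434.5 and Slc39a11 at 19.7 in mouse 4.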

How the results depend on the processing

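Counts of genes past the cutoffs depended on the method more than on scaling or filters. Strict calls, 2 in the report, were 30 with DESeq2, 44 with limma-voom and 3 RUVr factors and 29 with the replicate block, and the relaxed calls, 7 in the report, were 58, 224 and 94. Without RUVr factors, limma-voom gave 2 strict and 5 relaxed calls. With 1 RUVr factor in edgeR there were 13 relaxed calls and with all 17 hepatocyte-specific mice 15, of which 4 were among the 7. With 1 mouse left out, strict calls ranged from 2 to 11 and relaxed calls from 2 to 32. Without Ctrl mouse 5 and Maf1hep-/- mouse 2, an omission chosen after seeing the data, they were 17 and 65. In the block fit without pair 1, 2 or 3 there were 34, 40 and 19 strict calls, and without pair 1, 2, 3 or 4 there were 172, 100, 59 and 20 relaxed calls. RLE scaling, library totals, no filter and filterByExpr gave 2 or 3 strict and 7 relaxed calls. The interaction gave 11 calls with DESeq2 and 0 to 1 with 1 HF mouse left out, and the block changed no interaction call. The difference on the second component ranged from −31.3 to −19.9 with 1 mouse left out, with adjusted exact permutation p-values of 0.0857 to 0.257, of which 0.0857 (4 against 4) and 0.107 (3 against 5) are the smallest for a component that alone reaches the lowest p of 8 mice. The log2(FC) of some small effects changed sign. With 1 mouse left out, Acly reached −0.015, Acacb −0.15 to 0.26, Fasn −0.42 to 0.17, Me1 −0.33 to 0.11, Elovl5 −0.16 to 0.031, Fads1 −0.021 to 0.29, Tm6sf2 −0.011 to 0.46 and Mup2 −0.045 to 0.38. Acacb was −0.11 with the block, and Tm6sf2 −0.033 without Ctrl mouse 5 and Maf1hep-/- mouse 2. The cause of these changes was not tested. Of the values of named genes under the alternatives, 1993 kept direction and side of the threshold, 168 newly passed it, 24 no longer passed and 13 changed sign. With 4 and 5 mice, low genes such as Mt2, with 1 to 10 reads in each Ctrl library, are measured with wide counting error.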
